A study of Mus musculus with 12 samples.

Results

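The genes described are 35 that encode the enzymes by which pyruvate enters mitochondrial oxidation, those of the tricarboxylic acid (TCA) cycle and those of the reactions that refill it or shuttle its reducing equivalents. They were chosen by symbol, with earlier results of these data known, and all 35 were found among the 23337 genes of the tables. RNA was measured in sorted mouse cardiomyocytes (CMs) from 12 samples, 3 in each of 4 groups. All animals carried a Cre-dependent fluorescent reporter and received an adeno-associated virus (AAV9-cTNT-Cre) in which the promoter of cardiac troponin T drives Cre. Knockout (KO) animals were Srf-F/F and carried loxP sites in both copies of Srf, which encodes serum response factor. Control (CTRL) animals were Srf-F/+, so that their CMs also received Cre and could lose a copy but kept an intact one. Virus was given at postnatal day 1 (P1) with collection at P14 (neonatal KO) or at P60 with collection at P90 (adult KO). The dose was chosen to hit a minority of CMs in an otherwise working heart, and reporter-positive CMs were sorted, so any sorted cell that kept Srf dilutes the KO values. The 2 stages lie in separate tables, and stage cannot be told apart from handling that differed between them.

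The pyruvate dehydrogenase complex converts pyruvate from glycolysis and lactate into acetyl-CoA, and it is switched off by phosphorylation through the pyruvate dehydrogenase kinases and switched on again by phosphatases. Acetyl-CoA enters the TCA cycle at citrate synthase, and the dehydrogenases of the cycle pass electrons to the respiratory chain. Anaplerotic enzymes such as pyruvate carboxylase and the malic enzymes refill or drain cycle intermediates, and the malate-aspartate shuttle carries cytosolic reducing equivalents into mitochondria. The heart turns from glycolysis towards fatty acid oxidation after birth, and its mitochondria then fill a large part of the CM.

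Levels are given as CPM, counts scaled to library size after TMM scaling of all 12 libraries to a common scale, and as CPM per kb of exon where genes are compared with each other. Total counts were between 9740389 and 23103460 per sample, and the 35 genes took 3.51% to 3.93% of them in P14 CTRL, 2.87% to 3.11% in P14 KO and 4.0% to 4.16% over both P90 groups. The targeted gene Srf was lower in every KO sample than in every CTRL sample of its stage, with 56.8 ± 7.26 and 23.1 ± 11.8 CPM (SD, n = 3) in P14 CTRL and KO and 70.5 ± 11.0 and 29.9 ± 2.55 CPM at P90. At P14 it did not pass the test, with an adjusted p of 0.0628 by edgeR, or 0.0220 with the replicate number as a block. Replicate 3 of P14 KO had the lowest Srf, 9.75 CPM. CM markers were abundant in all samples. The sum of 8 such genes was lower in P14 KO, 66803 to 73453 CPM against 91908 to 101190 CPM in P14 CTRL. Myh6 alone passed the test by edgeR (log2 fold change -0.65). At an unadjusted p under 0.05 there were 4 of the 8, and DESeq2 called 2. At P90 the sum was also lower in KO without overlap, 80843 to 83488 against 90573 to 98413 CPM. There 0 of the 8 genes passed the test by edgeR, 5 had an unadjusted p under 0.05 and 3 were called by DESeq2. Myh6, Tnni3 and Myl2 are among these markers. The paper reports that these genes fall in neonatal Srf KO and have strong SRF occupancy near their promoters. For neonatal KO it also reports a fall of Ryr2 and a rise of Actn2, which are markers here as well. The sum thus holds genes reported to change with Srf loss in either direction, and it cannot gauge the share of CMs in a sample. Of 6 endothelial, 6 fibroblast and 6 immune markers, 0 passed between KO and CTRL at P14 by edgeR and 0 by DESeq2, with 1 immune marker at an unadjusted p under 0.05, and the sums of each list overlapped between the groups. The 5 smooth muscle and pericyte markers summed to 74.7 to 152 CPM in P14 CTRL and 182 to 194 CPM in P14 KO, and Cspg4 alone passed the test (log2 fold change 1.34). Of 5 erythroid markers 3 were in the tables, and Hba-a1 and Hba-a2 were at 0 in every group. The part of these differences in the results below was not tested, and in sorted pools a lower share of CM RNA and less RNA of a gene per CM cannot be told apart.

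In P14 CTRL the cytosolic and mitochondrial malate dehydrogenases led the group per length of exon, with 2212 ± 289 CPM per kb for Mdh1 and 1804 ± 205 for Mdh2 (SD, n = 3). The mitochondrial NADP-dependent isocitrate dehydrogenase Idh2 followed at 1613 ± 72.4 CPM per kb, and then the succinate dehydrogenase subunits Sdhb at 1393 ± 173 and Sdha at 1152 ± 121. At each step of this order the SDs of the neighbouring genes touch. At the other end stood the phosphatase Pdp2 with 2.41 ± 1.02 CPM per kb, pyruvate carboxylase Pcx with 3.07 ± 0.306, the malic enzyme Me2 with 4.39 ± 0.294 and the kinase Pdk3 with 7.66 ± 1.85. All 35 genes passed the filter on low counts in each comparison. Exons of Pdha1, Pdpr, Idh3b and Me1 overlap those of another gene in the tables (Map3k15, 9430091E24Rik, Nop56 and A330041J22Rik), and their counts are uncertain to that extent.

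Neonatal KO was compared with CTRL at P14 to ask how loss of Srf during maturation touched these enzymes. Of the 35 genes, 21 were down-regulated in neonatal KO and 0 were up-regulated (edgeR quasi-likelihood test, adjusted p under 0.05), whereas 4.6% of the 12546 genes tested were lower and 3.99% higher. DESeq2 called 24 lower and 0 higher, beside 7.86% and 6.19% of all genes, and the replicate block gave 23 calls beside 12.2%, while the estimate of Pdk3 alone was positive with an unadjusted p under 0.05. Their median log2 fold change was -0.63 beside 0.00 over all genes tested, and 33 of the 35 estimates were negative. All 5 subunit genes of the pyruvate dehydrogenase complex, citrate synthase, all 3 succinyl-CoA ligase genes and fumarase fell, and the kinases, phosphatases, pyruvate carboxylase and malic enzymes gave 1 call among 11 genes. In 28 genes every KO sample lay below every CTRL sample, while 16.7% of all genes tested did so. The median over the 35 genes of the log2 difference from the CTRL mean was -0.53, -0.59 and -0.70 in KO replicates 1, 2 and 3. It was between -0.14 and 0.13 in the CTRL samples. KO replicate 3, with the least Srf, was the lowest, but CTRL replicate 1, with the most Srf (64.0 CPM), was the lowest CTRL sample. KO replicate 3 also held 4005 Y-linked counts, against 1 and 0 in KO replicates 1 and 2. CTRL replicate 1 likewise held 4756, against 0 and 2 in CTRL replicates 2 and 3. In both P14 groups the lowest sample for the 35 genes was the one with many Y-linked counts. A relation of these medians to the level of Srf or to Y-linked counts was not tested.

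The count depended on each of the KO samples. Without KO replicate 1 it was 6, without replicate 2 it was 0 and without replicate 3 it was 2. Leaving out a CTRL sample left 18 to 21 calls. The 18, without CTRL replicate 3, were 17 lower and Pdk3 higher. The calls over all genes fell in the same fits, from 1078 to 202, 111 and 181 without KO replicates 1, 2 and 3, and were 767 to 1004 without a CTRL sample. Each of the 21 calls was lost in at least 1 of these fits, and each gene kept a negative log2 fold change in all 15 fits tried. The median over the 35 genes stayed between -0.70 and -0.55 when a sample was left out.

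**Figure D1:**
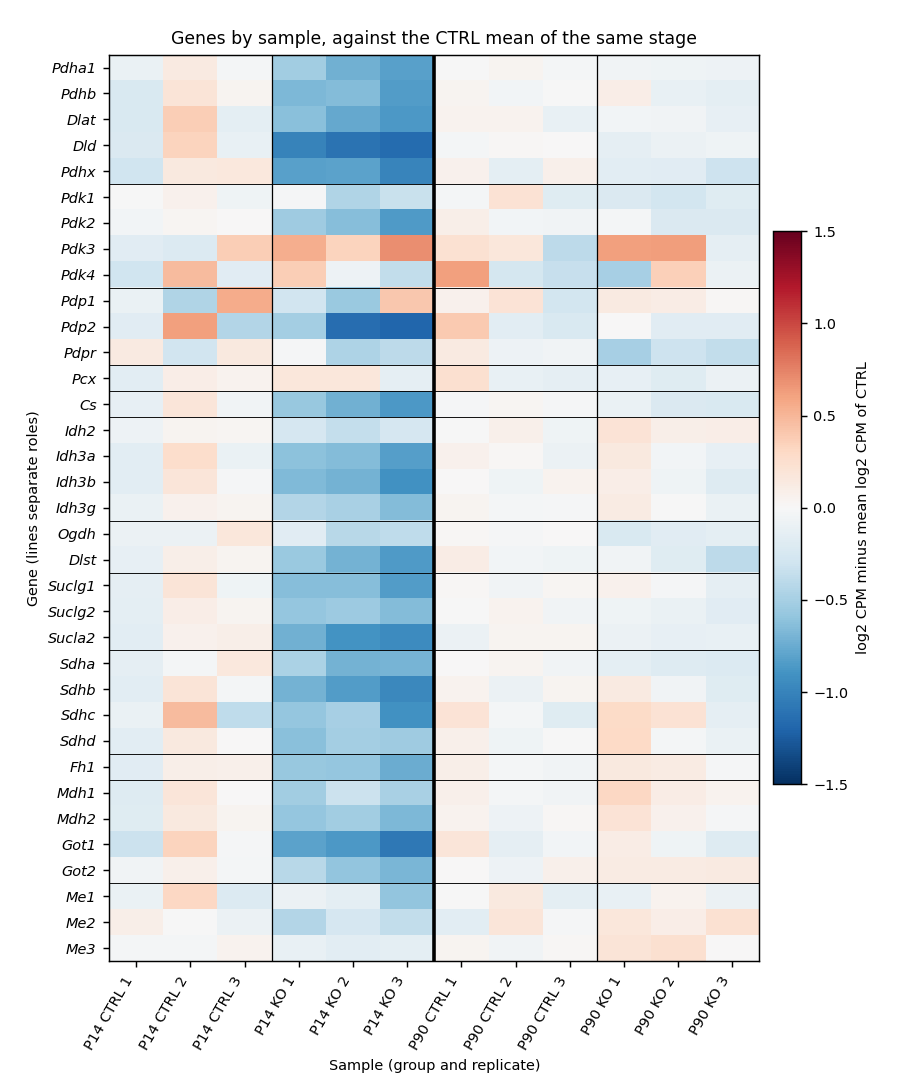
Heat map of log2 CPM (0.5 CPM added) of the 35 genes in the 12 samples, each minus the mean of the CTRL samples of the same stage, with roles separated by lines. The P14 KO columns are blue for most genes of the complex and the cycle, and the P90 KO columns stay near 0.

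The pyruvate dehydrogenase complex has the catalytic E1 part (Pdha1 and Pdhb), the acetyltransferase E2 (Dlat), the dihydrolipoamide dehydrogenase E3 (Dld) and the protein that binds E3 to the core (Pdhx). Dld, which also serves the 2-oxoglutarate and branched-chain complexes, had 585, 858 and 632 CPM in the P14 CTRL samples and 341, 317 and 306 CPM in the KO samples. No KO sample reached 585 CPM, the lowest CTRL value, and the log2 fold change was -1.11 ± 0.16 with an adjusted p of 0.0106 by edgeR. This was the largest fall among the 35 genes, to 46.4% of the CTRL mean. Pdhx was measured at 206, 281 and 284 CPM in CTRL and 145, 146 and 127 CPM in KO, a log2 fold change of -0.89 ± 0.15. Dlat had 574, 870.2 and 609.5 CPM in CTRL, where replicate 2 stood above the rest, and 437, 396 and 370.3 CPM in KO, a log2 fold change of -0.78 ± 0.17. The E1 beta gene Pdhb went from 1085, 1462 and 1306 CPM to 797, 813 and 714 CPM (-0.73 ± 0.14 on the log2 scale), and the X-linked E1 alpha gene Pdha1 from 1214, 1431 and 1277 CPM to 911, 788 and 744 CPM (-0.69 ± 0.13). For all 5 subunit genes the KO and CTRL ranges did not meet, and the adjusted p-values by edgeR were between 0.0106 and 0.0311.

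The 4 pyruvate dehydrogenase kinases, which turn the complex off, did not move as a block. Pdk2, the broadly expressed isoform, had 696, 731 and 714 CPM in P14 CTRL and 493, 459 and 395 CPM in KO, and it was the only kinase to pass, at a log2 fold change of -0.67 ± 0.12 (adjusted p 0.0167 by edgeR). Pdk4, which fasting and fatty acids are known to induce, was spread over 1225, 2096 and 1335 CPM in CTRL and 1945, 1432 and 1167 CPM in KO, and the groups overlapped throughout (log2 fold change -0.04 ± 0.25). Pdk1, a target of hypoxia signalling, had 207, 216 and 198 CPM in CTRL and 204, 152 and 164 CPM in KO with a log2 fold change of -0.26 ± 0.13. KO replicate 1 lay inside the CTRL range for Pdk1. Pdk3 had the largest positive estimate, with 13.3, 13.1 and 19.6 CPM in CTRL and 22.2, 19.2 and 24.8 CPM in KO. Its log2 fold change of 0.53 ± 0.19 had an adjusted p of 0.130 by edgeR and of 0.0479 with the replicate block. Of the summed kinase RNA per length of exon, Pdk4 made up 54.5% ± 6.54 (SD, n = 3) in P14 CTRL and 63.8% ± 3.55 in P14 KO, and Pdk2 made up 39.5% ± 5.64 and 29.5% ± 2.86. The shares of Pdk4 overlapped between the groups, and those of Pdk2 did not.

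**Figure D2:**
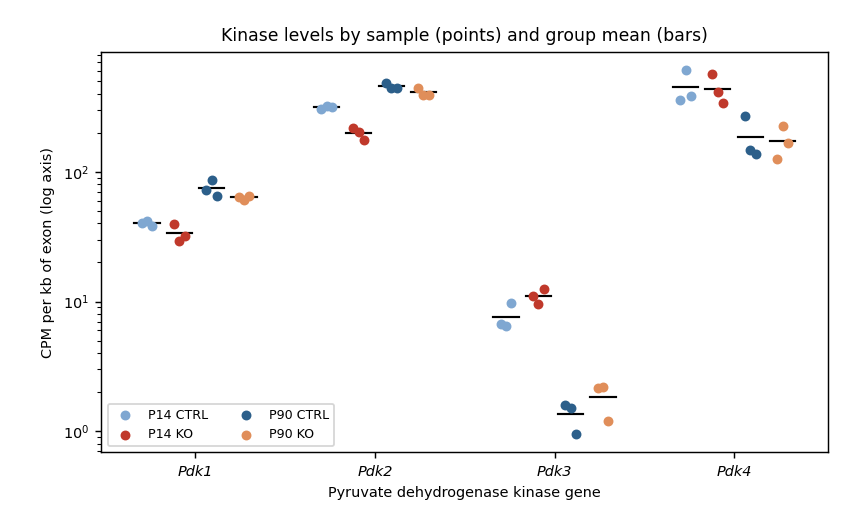
CPM per kb of exon of the 4 pyruvate dehydrogenase kinase genes on a log axis, with a point per sample and a bar at the group mean of 3. Pdk2 is lower in P14 KO than in P14 CTRL, Pdk4 overlaps between KO and CTRL at both stages, and Pdk3 and Pdk4 are lower at P90 than at P14.

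The phosphatases that reactivate the complex gave 0 calls among 3 genes by edgeR and 1, Pdp2, at an unadjusted p under 0.05 and by DESeq2. The catalytic subunit gene Pdp2 was scarce, with 7.04, 12.5 and 5.79 CPM in P14 CTRL and 5.48, 3.35 and 3.23 CPM in KO. Every KO value was under every CTRL value, yet the log2 fold change of -1.08 ± 0.35 carried a wide error and an adjusted p of 0.0937 by edgeR, against 0.0225 by DESeq2. The other catalytic subunit gene, Pdp1, ranged over 69.6, 54.5 and 109.9 CPM in CTRL and 61.3, 50.5 and 98.8 CPM in KO, with replicate 3 high in both groups. The regulatory subunit gene Pdpr had a log2 fold change of -0.29 ± 0.16, and its groups overlapped.

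The first enzyme of the cycle, citrate synthase (Cs), had 2294, 2830.4 and 2419 CPM in P14 CTRL and 1687, 1519 and 1373 CPM in neonatal KO. Its log2 fold change was -0.72 ± 0.14 with an adjusted p of 0.0204 by edgeR. The NAD-dependent isocitrate dehydrogenase, an allosterically regulated step of the cycle, is built from 3 kinds of subunit, and all 3 genes fell. Its catalytic subunit gene Idh3a went from 1258, 1688 and 1306 CPM in CTRL to 914, 896 and 789 CPM in KO (-0.71 ± 0.15 on the log2 scale). Idh3b went from 912, 1151 and 1008 CPM to 641, 625 and 541 CPM (-0.77 ± 0.13). Idh3g fell less, to 69.5% of the CTRL mean (log2 fold change -0.53 ± 0.11). Idh2, which makes NADPH in the same compartment, did not pass: it had 2604, 2832 and 2800.1 CPM in CTRL and 2295, 2136 and 2302 CPM in KO, which do not overlap, and a log2 fold change of -0.29 ± 0.11 with an adjusted p of 0.144 by edgeR.

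The 2-oxoglutarate dehydrogenase complex was split. Its E2 gene Dlst had 891, 1035 and 1000.5 CPM in P14 CTRL and 663, 595 and 541 CPM in KO, with a log2 fold change of -0.71 ± 0.12 and an adjusted p of 0.0169 by edgeR. Its E1 gene Ogdh had 3396, 3403 and 4077 CPM in CTRL and 3219, 2717 and 2770.2 CPM in KO, and at -0.32 ± 0.13 on the log2 scale it did not pass (adjusted p 0.175). Dld is the E3 of this complex as well. Whether Dlst and Ogdh responded differently from each other was not tested.

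Succinyl-CoA ligase, the step that makes a nucleoside triphosphate within the cycle, pairs the common subunit from Suclg1 with an ATP-forming subunit from Sucla2 or a GTP-forming subunit from Suclg2. Sucla2 fell from 1195, 1389 and 1419 CPM in P14 CTRL to 806, 715 and 692 CPM in KO, a log2 fold change of -0.86 ± 0.12 (adjusted p 0.0108 by edgeR). Suclg1 fell from 738, 926 and 777 CPM to 519, 521 and 454 CPM (-0.71 ± 0.13), and Suclg2 from 103, 122 and 117 CPM to 76.0, 77.9 and 72.2 CPM (-0.60 ± 0.11). No KO sample reached the CTRL range for any of the 3. Per length of exon, Sucla2 stood 12.6 times above Suclg2 in P14 CTRL and 10.6 times in P14 KO (geometric means of 3 samples), and the log2 ratios were 3.62 to 3.71 in CTRL and 3.31 to 3.52 in KO, without overlap.

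Succinate dehydrogenase, which is also complex II of the respiratory chain, has a flavoprotein subunit (Sdha), an iron-sulphur subunit (Sdhb) and 2 membrane anchors (Sdhc and Sdhd). Sdhb fell most, from 1332, 1698 and 1454 CPM in P14 CTRL to 912, 834 and 762 CPM in KO, a log2 fold change of -0.84 ± 0.14 with an adjusted p of 0.0138 by edgeR. Sdha and Sdhd fell to 64.6% and 67.7% of their CTRL means. Sdhc had 327, 488 and 270.3 CPM in CTRL, where the samples differed widely, and 235, 247 and 187 CPM in KO. At -0.70 ± 0.22 on the log2 scale it missed the threshold (adjusted p 0.0855 by edgeR) and passed with the replicate block (0.0259) and in DESeq2 (0.0183). Fumarase (Fh1) fell from 719.9, 864 and 857 CPM to 548, 540.0 and 483 CPM, a log2 fold change of -0.64 ± 0.12.

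Of the 4 malate-aspartate shuttle enzymes, 3 were down-regulated. The cytosolic aspartate aminotransferase Got1 showed the deepest fall that passed the test outside the pyruvate dehydrogenase complex, from 559, 876 and 689 CPM in P14 CTRL to 400.3, 384 and 331 CPM in KO (-0.93 ± 0.17 on the log2 scale, adjusted p 0.0197 by edgeR). Its mitochondrial partner Got2 fell from 825, 904 and 840.1 CPM to 641, 569.6 and 530.1 CPM (-0.57 ± 0.12). Mdh2, the mitochondrial malate dehydrogenase that closes the cycle, fell from 2028, 2548 and 2363 CPM to 1545, 1601 and 1442 CPM (-0.60 ± 0.13). The cytosolic Mdh1 had 3771, 4903 and 4321 CPM in CTRL and 2989, 3442 and 3081 CPM in KO, below CTRL in every sample, with an adjusted p of 0.0817 by edgeR and 0.0169 by DESeq2.

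Pyruvate carboxylase and the 3 malic enzymes gave 0 calls at P14 by edgeR and 0 by DESeq2, with Me2 at an unadjusted p under 0.05. Pcx, which carboxylates pyruvate to oxaloacetate, had 11.6, 14.1 and 13.6 CPM in P14 CTRL and 14.8, 14.8 and 11.9 CPM in KO, with the KO values inside or just above the CTRL range. The malic enzymes make pyruvate from malate. The cytosolic Me1 had 116, 154 and 108 CPM in CTRL and 117, 113 and 82.7 CPM in KO, which overlapped. The mitochondrial Me2 had 11.5, 10.8 and 10.1 and 7.82, 8.95 and 8.24 CPM, and the mitochondrial Me3 167, 167 and 176 and 158, 153 and 154 CPM. Both were lower in every KO sample than in every CTRL sample, by a small margin, with log2 fold changes of -0.37 ± 0.15 and -0.14 ± 0.09 and adjusted p-values of 0.164 and 0.396 by edgeR.

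**Figure D3:**
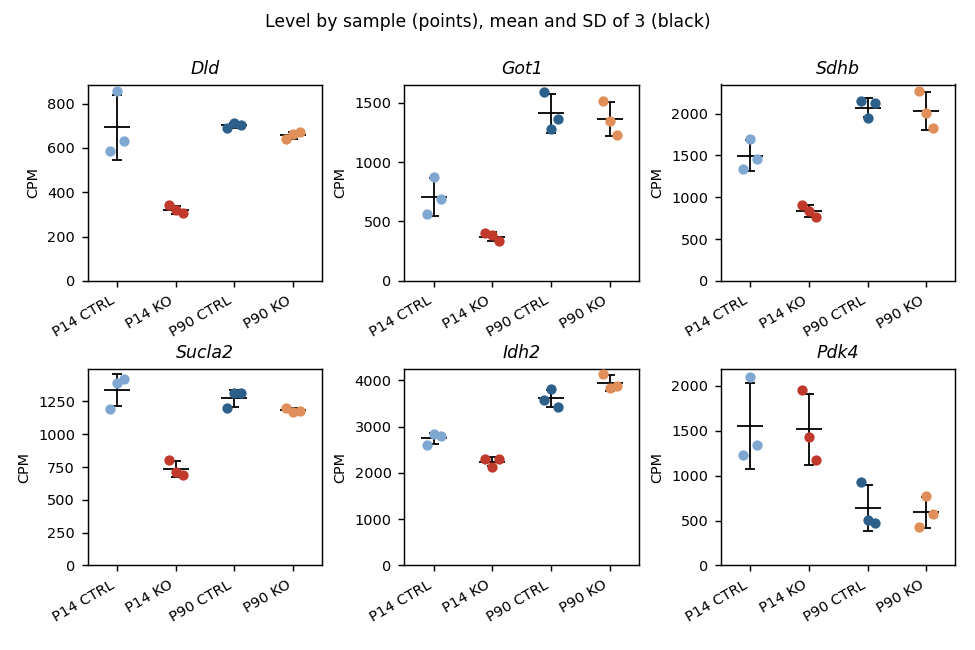
CPM in each sample (points) with the mean and SD of 3 samples for 6 genes in the 4 groups. Dld, Got1, Sdhb and Sucla2 are lower in all P14 KO samples than in all P14 CTRL samples, the difference is smaller for Idh2, and Pdk4 overlaps between KO and CTRL.

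A further 37 genes that supply or assist the pathway were counted in the same fit. Of these, 11 were lower and 1 was higher in neonatal KO, with a median log2 fold change of -0.41. The lower genes included the alanine aminotransferases Gpt (-0.69) and Gpt2 (-0.88), the lipoate synthase Lias (-0.48), the succinate dehydrogenase assembly factor Sdhaf2 (-0.53), the 2-oxoglutarate carrier Slc25a11 (-0.75) and the aspartate-glutamate carrier Slc25a13 (-0.52). Pcca (-0.65) and Mcee (-0.99), which lead propionyl-CoA towards succinyl-CoA, were also lower, as were the nuclear receptor Rxrg (-1.47) and the coactivator Ppargc1b (-0.79) among 10 regulators. The citrate carrier Slc25a1 was the higher gene, at 5.23 CPM in CTRL and 11.2 CPM in KO (log2 fold change 1.10).

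The promoters of the group were read from RefSeq (GRCm38.p6, 250 bases before to 50 after a transcription start). They include those of genes that did not pass in neonatal KO, such as Ogdh, Pcx, Pdk4 and Idh2. The shares were not taken for the down-regulated genes alone, so they do not bear on the fall in neonatal KO. Entries existed for 31 of the 35 genes, 40 in all, of which 6 were alternative starts of Ogdh. A CArG box, the binding motif of SRF, was present in 0 of the 40 and in 1.63% of all 32851 entries. The sequence CCAAT, bound by NF-Y, was in 62.5% of the 40 entries and 37.4% of all entries, TGCGCA, the core of the NRF1 motif, in 17.5% and 7.76%, and AAGGTCA, bound by oestrogen-related and other nuclear receptors, in 7.5% and 4.72%, counting both strands. In the 250 bases before the start alone, the shares were 52.5% and 33.9% for CCAAT, 12.5% and 6.43% for TGCGCA and 2.5% and 4.08% for AAGGTCA, so the order for AAGGTCA turned with the window. Such matches describe letters and not bound sites, and binding was not measured in these files. The 4 down-regulated genes with the most matches in those 250 bases are shown to let the letters be read, from 5′ to 3′ on the strand of the gene, ending at the last base before the start, with matches on either strand in capitals (ATTGG is CCAAT on the other strand).
Got1, chr19:43524606-43524855, minus strand: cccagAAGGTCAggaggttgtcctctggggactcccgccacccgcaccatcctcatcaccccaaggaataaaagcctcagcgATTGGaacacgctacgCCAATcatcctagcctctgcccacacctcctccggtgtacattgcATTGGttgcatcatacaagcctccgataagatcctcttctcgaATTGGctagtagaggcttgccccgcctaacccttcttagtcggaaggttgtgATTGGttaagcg
Pdhb, chr14:8172993-8173242, minus strand: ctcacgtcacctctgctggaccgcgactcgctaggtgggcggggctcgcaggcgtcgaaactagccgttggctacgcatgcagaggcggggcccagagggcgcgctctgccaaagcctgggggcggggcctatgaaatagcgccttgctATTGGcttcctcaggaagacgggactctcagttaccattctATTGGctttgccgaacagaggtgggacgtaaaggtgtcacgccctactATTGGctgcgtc
Pdk2, chr11:95041372-95041621, minus strand: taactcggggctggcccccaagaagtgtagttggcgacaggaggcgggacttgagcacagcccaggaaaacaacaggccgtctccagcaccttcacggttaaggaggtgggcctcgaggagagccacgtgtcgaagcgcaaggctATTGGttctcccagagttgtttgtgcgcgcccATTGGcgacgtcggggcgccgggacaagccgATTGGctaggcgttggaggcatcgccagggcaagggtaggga
Sdha, chr13:74350241-74350490, minus strand: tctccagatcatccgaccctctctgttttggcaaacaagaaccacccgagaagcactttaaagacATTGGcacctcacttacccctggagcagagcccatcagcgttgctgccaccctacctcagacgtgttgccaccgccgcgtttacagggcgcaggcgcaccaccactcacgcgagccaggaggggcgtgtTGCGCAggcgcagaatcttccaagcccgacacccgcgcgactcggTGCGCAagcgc

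Adult KO was compared with CTRL at P90 to ask the same of CMs that had already matured. By edgeR's quasi-likelihood test 0 of the 35 genes passed, while 0.39% of the 11808 genes tested did. At an unadjusted p under 0.05 the count was 1 (Pdpr), and the share over all genes was not taken there. The median log2 fold change was -0.05 beside 0.01 over all genes tested, and 22 estimates were negative and 13 positive. In 9 genes every KO sample was below every CTRL sample and in 2 every KO sample was above, where 11.2% and 10.3% of all genes tested did so.

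Pdpr, the regulatory subunit of the phosphatase, came closest. It had 118, 102 and 104 CPM in P90 CTRL and 75.9, 86.8 and 83.2 CPM in adult KO, without overlap, and a log2 fold change of -0.39 ± 0.10. Its adjusted p was 0.108 by edgeR, 0.0291 by DESeq2 and 0.0307 with the replicate block. Pdpr was the 1 gene of the group called in the latter 2 fits, which called 2.87% and 5.55% of all genes. The replicate numbers did not pair the P90 samples, so the blocked value is an alternative fit and not a paired test. Among genes that fell in neonatal KO, Pdhx had 332, 286 and 336 CPM in P90 CTRL and 285, 283 and 257 CPM in adult KO, without overlap and at 86.4% of the CTRL mean (log2 fold change -0.21 ± 0.10, adjusted p 0.327 by edgeR). Dld had 688, 712 and 705 CPM in CTRL and 639.7, 661 and 670.1 CPM in KO, a log2 fold change of -0.09 ± 0.08. Got1 had 1590.1, 1278 and 1361 and 1516, 1347 and 1225 CPM, which overlapped (-0.04 ± 0.11). Sucla2 had 1201, 1313 and 1311 and 1199, 1171 and 1177 CPM, lower in KO by a narrow margin (-0.10 ± 0.09). Cs had 2563, 2643 and 2554 and 2405, 2224 and 2202 CPM, also without overlap (-0.18 ± 0.09, adjusted p 0.334 by edgeR).

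Among kinases, Pdk3 again had the largest positive estimate, at 3.20, 3.04 and 1.90 CPM in P90 CTRL and 4.33, 4.38 and 2.38 CPM in adult KO, with overlap and a log2 fold change of 0.47 ± 0.29. Pdk4 was spread over 929.8, 505 and 478 CPM in CTRL and 431, 776 and 571 CPM in KO. Its share of the kinase RNA per length was 25.2% ± 6.34 in CTRL and 26.4% ± 6.69 in KO, and the share of Pdk2 was 64.1% ± 5.02 and 63.5% ± 6.16. The ratio of Sucla2 to Suclg2 per length was 6.22 in both P90 groups. Idh2 and Got2 were the genes whose KO samples all exceeded CTRL, with log2 fold changes of 0.14 ± 0.09 and 0.13 ± 0.09 and adjusted p-values of 0.484 and 0.494 by edgeR. Of the 37 supporting genes, 0 passed in adult KO by edgeR and 1 by DESeq2. An unadjusted p under 0.05 was found in 8, without a share over all genes to set beside it.

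**Figure D4:**
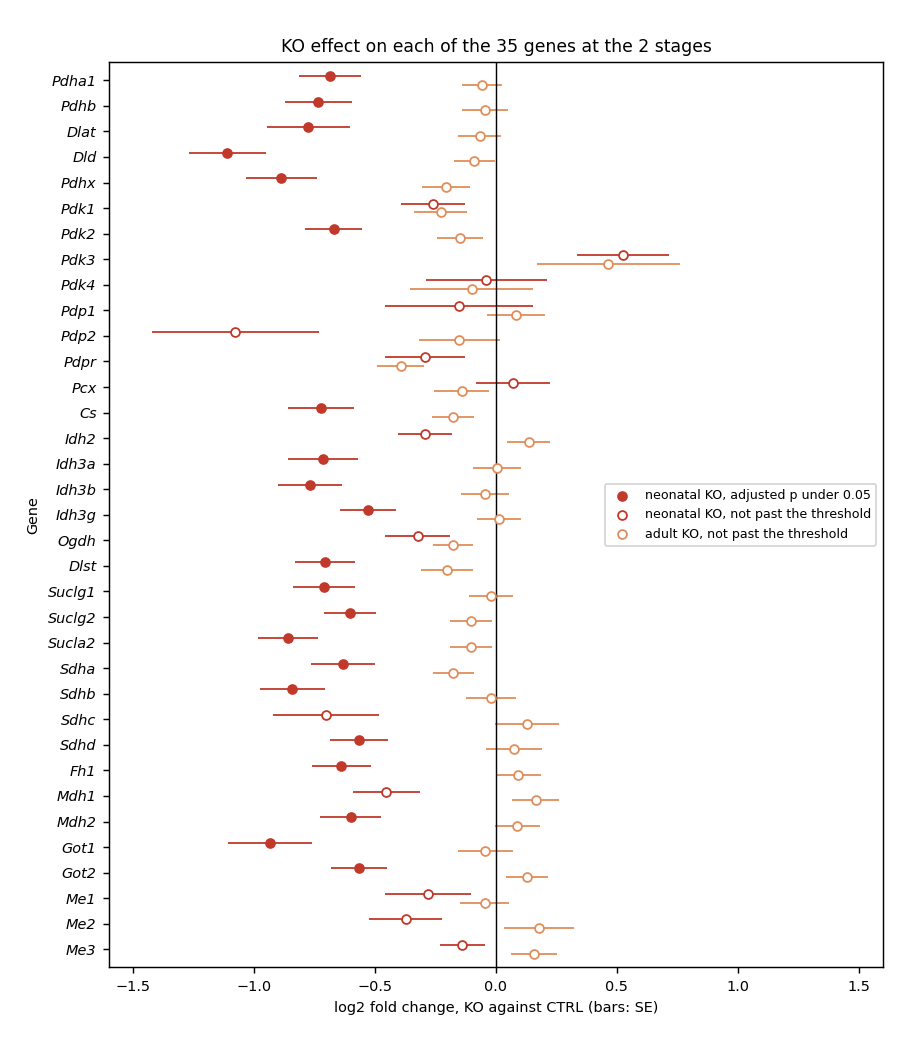
Log2 fold change of KO against CTRL for the 35 genes, with SE bars, in neonatal KO (P14, red) and adult KO (P90, orange). Filled points passed the test: 21 neonatal points lie left of 0 and are filled, and all adult points are open.

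Whether the KO effect differed between the stages was tested as the neonatal minus the adult log2 fold change in a fit of all 12 samples. In 9 of the 35 genes the neonatal effect was lower and in 0 higher (edgeR quasi-likelihood test, adjusted p under 0.05), where 0.958% of the 12841 genes tested were lower and 0.818% higher. By DESeq2 the counts were 24 and 0, with 5.79% of all genes lower. At an unadjusted p under 0.05 they were 27 and 0, but the share over all genes was not taken at that threshold. The 9 genes by edgeR were Dld, with a difference of -1.01 ± 0.18, Sdhb (-0.81 ± 0.17), Sucla2 (-0.75 ± 0.14), Fh1 (-0.72 ± 0.14), Idh3b (-0.71 ± 0.16), Got2 (-0.69 ± 0.13), Suclg1 (-0.68 ± 0.15), Mdh2 (-0.68 ± 0.15) and Pdha1 (-0.62 ± 0.14). They belong to the pyruvate dehydrogenase complex (2), the succinyl-CoA ligases (2), the shuttle enzymes (2) and, with 1 each, isocitrate dehydrogenase, succinate dehydrogenase and fumarase. The P90 values behind the difference were 2147, 1946 and 2122 CPM in CTRL and 2273, 2002 and 1824 CPM in KO for Sdhb and 781, 724 and 709 and 816, 806 and 731 CPM for Fh1. For Mdh2 they were 2319, 2132 and 2269 and 2574, 2336 and 2210.2 CPM, and for Got2 886, 842 and 929 and 963, 962 and 971 CPM. In Sdhb, Fh1 and Mdh2 the adult groups overlapped. Idh3b had 1132, 1082 and 1173 and 1204, 1081 and 986 CPM, Suclg1 743, 708 and 747 and 766, 725 and 669 CPM and Pdha1 1645, 1699 and 1616 and 1599, 1577 and 1572 CPM, and of these 3 only Pdha1 was without overlap.

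The count of 9 moved with the fit. It was 16 with the replicate block (3.15% of all genes lower), 14 without the filter on low counts, 5 with a correction for gene length (0.989% of all genes lower) and 4 with a term for Y-linked counts. Over all genes, 228 calls in both directions became 474 without the filter and 86 with the Y-linked term. The length correction dropped Sdhb, Mdh2, Suclg1 and Idh3b, at adjusted p-values of 0.0520 to 0.0542 by edgeR. Their differences in that fit were -0.52, -0.46, -0.48 and -0.54. With the block, Pdhb, Idh3a, Suclg2, Sdhc, Sdhd, Mdh1 and Got1 were added, at adjusted p-values of 0.0261 to 0.0471 by edgeR. The replicate numbers did not pair the P90 samples and their pairing at P14 is uncertain, so these added calls rest on a pairing that was not established. Leaving out a sample gave 18 without P14 CTRL replicate 1, 4 without P14 CTRL replicate 2, 3 without P14 KO replicate 1, 0 without P14 KO replicate 2, 1 without P14 KO replicate 3, 1 without P90 CTRL replicate 1 and 0 without any of P90 CTRL replicates 2 and 3 or P90 KO replicates 1 and 2. The calls over all genes in these fits were, in the same order, 377, 137, 58, 50, 44 and 75, and then 42, 5, 17 and 4, so the count fell over all genes as well. All 9 genes kept a negative difference in each of the 20 fits.

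CTRL CMs at P90 and P14 were compared to follow the group through maturation. Of the 35 genes, 13 were higher and 2 lower at P90 (edgeR quasi-likelihood test, adjusted p under 0.05), where 14.5% of the 12294 genes tested were higher and 14.9% lower. The median log2 fold change was 0.17 beside -0.01 over all genes tested. Without P90 CTRL replicate 1 the count fell from 15 to 9, of which 7 were higher, and that over all genes from 3607 to 2067. Fibroblast markers summed to 107 to 316 CPM at P14 and 48.1 to 69.1 CPM at P90, with 4 of 6 lower, and 4 of 6 endothelial markers were lower as well, and their part in this comparison was not tested.

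Pcx rose most, from 11.6, 14.1 and 13.6 CPM in P14 CTRL to 124, 96.2 and 95.2 CPM in P90 CTRL, a log2 fold change of 3.0 ± 0.15 (adjusted p 1.66e-05 by edgeR). This is an 8.03-fold level, and the P90 KO samples had 95.5, 91.8 and 97.7 CPM, which overlapped with P90 CTRL. The RNA of genes that regulate the pyruvate dehydrogenase complex differed in its make-up between the CTRL stages. Pdk3 fell from 13.3, 13.1 and 19.6 CPM to 3.20, 3.04 and 1.90 CPM (-2.49 ± 0.27) and Pdk4 from 1225, 2096 and 1335 CPM to 929.8, 505 and 478 CPM (-1.28 ± 0.28). Pdk1 rose from 207, 216 and 198 CPM to 373, 443 and 335 CPM (0.89 ± 0.13) and Pdk2 from 696, 731 and 714 CPM to 1096, 1004 and 995 CPM (0.53 ± 0.10). The larger share of the kinase RNA per length was held by Pdk4 at P14 and by Pdk2 at P90. The phosphatase genes Pdp2 (1.33 ± 0.29) and Pdpr (0.70 ± 0.14) rose, and Pdp1 had an estimate of 0.69 ± 0.24 that did not pass.

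Within the cycle and the shuttle, the CTRL comparison set apart Got1, from 559, 876 and 689 to 1590.1, 1278 and 1361 CPM (1.00 ± 0.17), and Suclg2, from 103, 122 and 117 to 221, 230.0 and 214 CPM (0.96 ± 0.11), to 199% and 194% of the P14 means. Their partners did not pass: Got2 had a log2 fold change of 0.05 ± 0.10 and Sucla2 one of -0.06 ± 0.11. The ratio of Sucla2 to Suclg2 per length was 12.6 at P14 and 6.22 at P90, and that of Got1 to Got2 was 0.928 and 1.81. Ogdh (0.63 ± 0.11), Sdhc (0.74 ± 0.20), Sdhb (0.47 ± 0.12), Idh2 (0.40 ± 0.10), Sdha (0.38 ± 0.11) and Pdha1 (0.34 ± 0.10) rose less. Cs, Idh3a, Dld, Mdh2, Me2 and Me3 had estimates between -0.04 and 0.04. Of the 37 supporting genes, 15 were higher and 2 lower at P90.

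**Figure D5:**
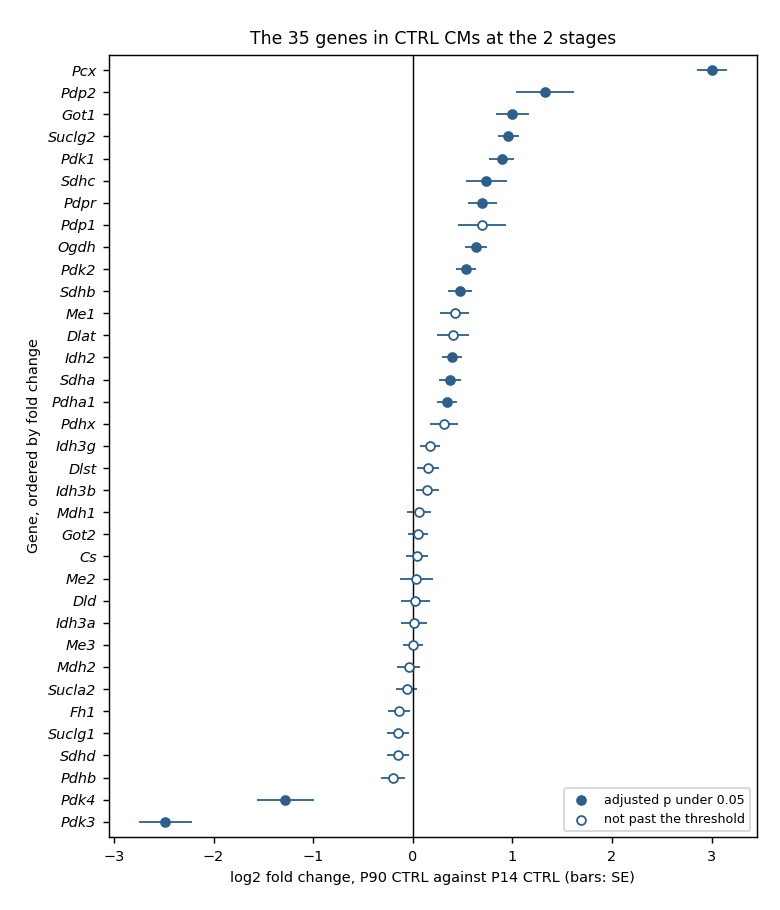
Log2 fold change of P90 CTRL against P14 CTRL for the 35 genes, ordered by size, with SE bars, filled where the test was passed. Pcx stands alone at the top with 3.0, and Pdk4 and Pdk3 at the bottom with -1.28 and -2.49.

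The P14 CTRL samples stand in both the neonatal KO comparison and the CTRL comparison, so only the values themselves are set side by side. Dld had a log2 fold change of -1.11 in neonatal KO and 0.02 between the CTRL stages, and Cs had -0.72 and 0.04. For Got1 the values were -0.93 and 1.00, and for Sdhb they were -0.84 and 0.47. Pcx had 0.07 and 3.0.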

How the data were processed

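The authors aligned single-end reads of SMART-seq and Nextera libraries to mm10 and counted them per gene, and they deposited raw counts in a table per stage. The submitters' processing notes name CASAVA 1.8, STAR 2.5.3a and featureCounts of Subread 1.5.2, while strandedness and the handling of multiply matching reads are not given in the sources used here, so overlapping genes are uncertain. Of the gene symbols, 25 had become dates. Total counts ranged from 9740389 to 23103460, and 3 counts correspond to 0.138 to 0.326 CPM, which covers counting error of amplified cDNA only.

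Samples were grouped by their titles. The counts as deposited were fitted in R 4.3.3 with edgeR 4.0.16 (filterByExpr, TMM, quasi-likelihood F-test) on all genes, with Benjamini-Hochberg adjustment over all genes tested and a threshold of 0.05. Each stage was fitted on its 6 samples, the interaction on 12 and the CTRL comparison on 6, and the rows of the 35 genes were then read. The SE of a log2 fold change is its size over the root of F. The alternatives were DESeq2 1.42.0 (the tool of the study), the replicate number as a block, RLE and upper quartile scaling, no filter, a correction for exon length, a term for Y-linked counts (3 samples held at least 100), a fit of all 12 samples and leaving out each sample. The scripts were tested on simulated data. P-values measure the spread between the 3 samples of a group, and no table column held a sample outside the series.

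Replicate numbers are shared by CTRL and KO titles. At P14 the deviations from the group means of same-numbered samples correlated at 0.133, 0.127 and 0.453 across genes. All were above 0.1, the rule by which the numbers were taken to pair these samples. Yet only replicate 3 of the KO correlated best with its own number. Replicates 1 and 2 correlated slightly more across numbers (0.135 and 0.161), so the pairing is uncertain and the block serves as an alternative fit. The blocked value is given beside each gene whose neonatal call it changed.

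The genes and the supporting lists were chosen with earlier results of these data known. Genes that passed were named with every sample's value up to the 15 largest changes, along with the kinases, ligases and malic enzymes. Promoter sequences are from RefSeq (GRCm38.p6), matched by symbol for all but Pdp1, Me2, Sdhc and Idh3a.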

Additional observations from a re-analysis of the deposited data

Results flagged for a closer look

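In the interaction test, 9 genes had a KO effect that was not the same at both stages (neonatal minus adult log2 fold change, edgeR adjusted p under 0.05, 3 samples per group). The differences were -1.01 for Dld, -0.81 for Sdhb, -0.75 for Sucla2, -0.72 for Fh1, -0.71 for Idh3b, -0.69 for Got2, -0.68 for Suclg1, -0.68 for Mdh2 and -0.62 for Pdha1. In all 9 the 3 neonatal KO samples were below the 3 CTRL samples. Each of the 9 calls was lost when some single sample was left out. Those of Sdhb, Mdh2, Suclg1 and Idh3b were also lost with the correction for gene length. Stage cannot be told apart from table.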

How the results depend on the processing

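The 21 calls in neonatal KO became 23 with the replicate block (22 lower and Pdk3 higher), 24 in DESeq2, 25 in the fit of all 12 samples and 22 without the filter (calls over all genes 1078, 1529, 1787, 2088 and 1281 in this order from the first fit), and stayed 21 with the other 2 scalings, the length correction and the Y-linked term. Leaving out a sample gave 0 to 21, and the causes of these moves were not tested. The median of the 35 genes kept its sign in every alternative tried at both stages and moved by less than the spread between samples. In adult KO the count of 0 became 1 (Pdpr) with the replicate block, without the filter and in DESeq2, and stayed 0 otherwise. The 9 stage differences became 16 with the replicate block, 14 without the filter, 5 with the length correction, 4 with the Y-linked term and 24 in DESeq2, and 0 to 18 when a sample was left out. For P90 against P14 CTRL the 15 calls were 13 with the block (Pdha1, Idh2 and Sdha lost, at adjusted p-values of 0.0758, 0.0583 and 0.0826 by edgeR, and Me1 added at 0.0318), 17 in DESeq2 and 9 to 17 when a sample was left out. The numbers did not pair the adult samples (correlations 0.276, 0.0232 and 0.0847, only replicate 1 of the KO correlating best with its own number) or the CTRL samples of the 2 stages. Over single genes, no alternative turned the sign of a called change. The ratios between isoforms and the shares of promoters with a motif moved within their error. Pdp2, Pcx, Me2 and Pdk3 were the scarcest genes per length at P14. The SEs of their log2 fold changes in neonatal KO were 0.35, 0.15, 0.15 and 0.19. The more abundant Pdp1, Pdk4 and Sdhc had SEs of 0.30, 0.25 and 0.22, so precision did not follow abundance alone.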
